A study of Mus musculus with 62 samples.

Results

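The genes described here mark the cells of brain blood vessels: 6 that mark endothelial cells, Cldn5, Pecam1, Flt1, Kdr, Vwf and Slc2a1, and 4 that mark mural cells, Pdgfrb, Rgs5, Vtn and Acta2. They were picked by symbol from the deposited gene abundance tables, and are 10 of the 53975 gene identifiers those tables hold. All 10 had a mean TPM (transcript abundance per length and library) of at least 1 and passed the filter on low values. They were followed in long-RNA libraries of whole hippocampus from 17 mice. APP mice, of the strain APP NL-G-F, which carries a humanised App gene with 3 disease mutations in its own locus, were compared with C57BL/6J wild types (WT). The ages were 3, 6 and 12 months, and each age and genotype had 3 mice except WT at 3 months, which had 2. The series design places 3 months before plaques, 6 months at their appearance and 12 months at the terminal stage. No group received a treatment, both hippocampi of a mouse were pooled into 1 library, and the sex of the mice is not given in the labels. The App alleles act in every cell that uses the App gene, so the model is not limited to the cells of the vessel wall.

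Endothelial cells line the vessels of the brain and form the blood-brain barrier. They seal the gaps between each other with tight junctions, in which the claudin Cldn5 is the main component, and they move glucose into the tissue through the transporter Slc2a1 (GLUT1). Mural cells wrap the endothelial tube: pericytes on capillaries and smooth muscle cells on arterioles. Endothelial PDGF-B holds pericytes on the vessel through their receptor Pdgfrb, and VEGF drives vessel growth through its receptor Kdr, with Flt1 as a second receptor that binds VEGF tightly and limits what reaches Kdr. In Alzheimer's disease and in mice that deposit amyloid, plaques lie beside vessels and amyloid can collect in vessel walls, which is why genes of the barrier are often examined in such tissue.

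Relative depth, read as the most common ratio of coverage to FPKM, ran from 1.42 to 3.04 over the mouse libraries. Of genes with signal, 46.7% to 48.6% per library had that ratio, so it need not describe a given gene. The share of TPM on protein-coding genes ran from 26.6% to 51%. Because of that range, each library was scaled by the median of its ratios to the geometric mean of all mouse libraries, and levels below are scaled TPM unless called deposited. Neuronal genes were at high levels in all mice, as in hippocampal tissue. Snap25, a synaptic vesicle fusion protein, had group means from 730 to 821, and Slc17a7, the glutamate transporter of excitatory neurons, from 249 to 384. Xist, the RNA of the inactive X chromosome, lay between 70.2 and 137 in every APP mouse and in both WT mice at 3 months, and at no more than 0.521 in the WT mice at 6 and 12 months. Ddx3y, on the Y chromosome, lay between 18.7 and 28.0 in those WT mice and at no more than 0.0792 in the others. Genotype and sex therefore cannot be told apart at 6 and 12 months or in the genotype by age interaction. The comparison at 3 months and those between ages of 1 genotype, as made here, lie within 1 sex. Coverage of the endothelial genes Vwf, Flt1, Pecam1 and Kdr was shallow. Mean read depth over the gene ran from 0.206 to 1.28 for Vwf and from 0.425 to 1.48 for Flt1. It ran from 0.528 to 1.73 for Pecam1 and from 0.540 to 2.22 for Kdr, against 16.3 to 37.7 for Vtn, the best covered. The endothelial genes Cldn5 and Slc2a1 had 2 to 9.77 and 8.45 to 30.1, and the mural gene Acta2 had 1.22 to 4.58. In bulk tissue, fewer cells of a type and less RNA per cell cannot be told apart.

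RefSeq promoters on build GRCm38.p6 are shown for Cldn5, Flt1 and Rgs5. These 3 were the only ones whose window of 250 bases lay wholly before the annotated start of the gene. For each of them the genotypes did not overlap at 12 months. Of the 10 genes, 7 were in the promoter table. Each sequence is the 250 bases before the start of the gene, 5′ to 3′ on the strand of the gene. Capitals mark GGAAG, the core bound by ETS factors, a family that acts in endothelial cells, and CCAAT, the box bound by NF-Y, each searched on both strands (CTTCC and ATTGG in reverse). No match of one overlapped a match of the other. The windows lie at chr16:18776597-18776846 (Cldn5, plus strand), chr5:147726012-147726261 (Flt1, minus strand) and chr1:169655251-169655500 (Rgs5, plus strand).
Cldn5: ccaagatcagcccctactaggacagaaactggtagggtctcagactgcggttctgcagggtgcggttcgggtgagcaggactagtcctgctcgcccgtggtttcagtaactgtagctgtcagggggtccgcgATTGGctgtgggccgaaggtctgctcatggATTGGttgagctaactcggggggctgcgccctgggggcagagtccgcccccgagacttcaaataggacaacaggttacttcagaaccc
Flt1: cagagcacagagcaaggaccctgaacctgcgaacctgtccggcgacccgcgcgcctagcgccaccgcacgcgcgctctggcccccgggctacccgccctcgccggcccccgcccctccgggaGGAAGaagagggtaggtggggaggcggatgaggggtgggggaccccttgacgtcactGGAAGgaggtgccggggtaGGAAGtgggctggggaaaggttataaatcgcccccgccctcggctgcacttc
Rgs5: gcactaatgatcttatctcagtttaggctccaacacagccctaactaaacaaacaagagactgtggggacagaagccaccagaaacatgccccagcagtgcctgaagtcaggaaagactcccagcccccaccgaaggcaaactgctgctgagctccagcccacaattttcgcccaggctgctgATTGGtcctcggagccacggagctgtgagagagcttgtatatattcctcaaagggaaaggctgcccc
The Flt1 window held GGAAG at 3 places and no CCAAT. The Cldn5 window held CCAAT at 2 places, the Rgs5 window at 1, and neither held GGAAG. Of 32851 RefSeq promoter windows of 250 bases, 64.1% held GGAAG and 33.8% held CCAAT, so each motif is common and its presence is a description of these letters only.

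The mural genes Vtn and Rgs5 and the transporter Slc2a1 were the most abundant of the 10, with mean deposited TPM of 27.9, 15.9 and 14.1. Pdgfrb (3.54), Cldn5 (3.36), Flt1 (2.62), Pecam1 (2.25), Acta2 (1.95), Vwf (1.46) and Kdr (1.23) followed. TPM is per length, but read depth along the gene gave another order among the low genes. Kdr, the lowest by TPM, had a read depth of 0.540 to 2.22, against 0.206 to 1.28 for Vwf and 0.425 to 1.48 for Flt1. The order of the low genes is therefore not secure. Among protein-coding genes the 10 ran from percentile 42.4 (Kdr) to percentile 87.1 (Vtn) of mean TPM. Spread over the 17 mice was least for Pdgfrb, with a coefficient of variation of 14.6%, and most for Vwf (50.1%), Acta2 (40.9%) and Cldn5 (33.9%).

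**Figure D1:**
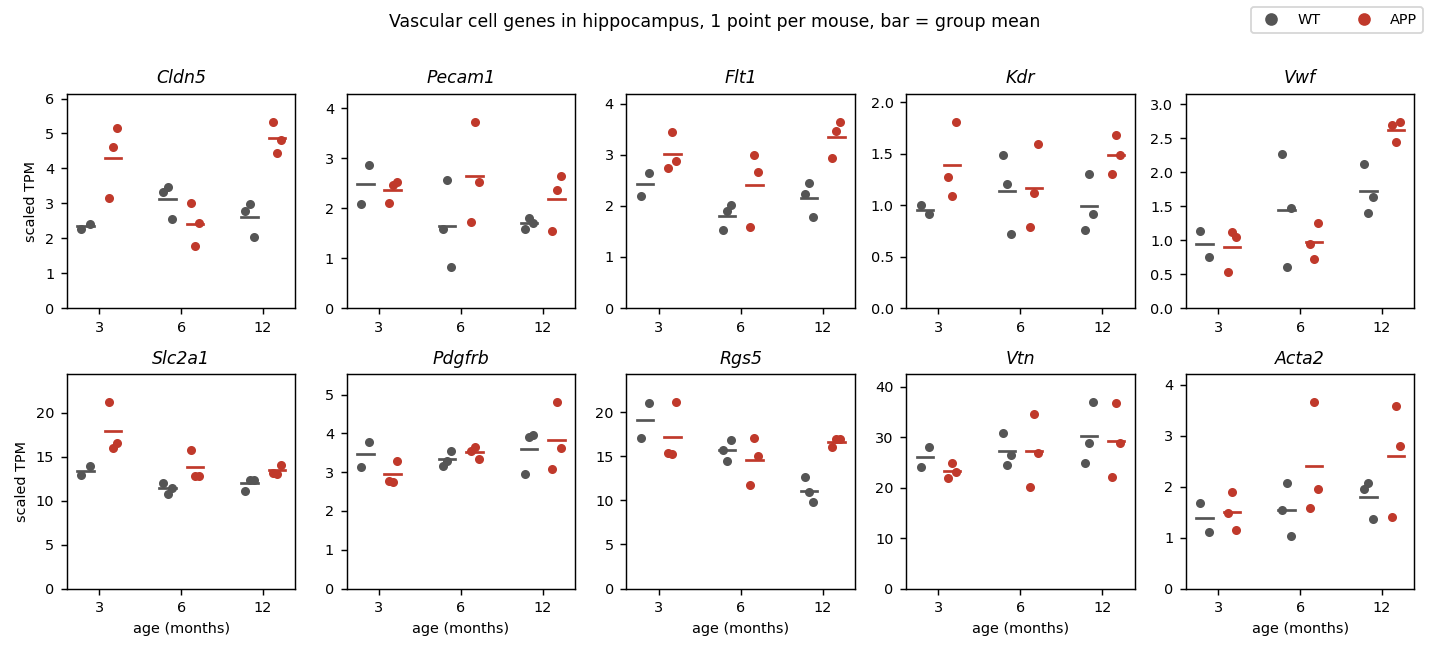
Scaled TPM (vertical axes, each from 0) of the 10 genes at 3, 6 and 12 months (horizontal axes), with 1 point per mouse, WT in grey and APP in red, and a bar at each group mean. Cldn5 lay between 4.43 and 5.33 in APP mice at 12 months and between 2.04 and 2.98 in WT mice of that age, while the Vtn points of both genotypes are mixed at every age.

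No member passed the test between APP and WT at any age, and 1, Vwf, passed a test between ages of APP mice. Endothelial genes had positive APP minus WT medians at all 3 ages: 0.25, 0.13 and 0.38 on the log2 scale at 3, 6 and 12 months, where the median of all 17840 tested genes was 0. The mural medians were -0.15, 0.02 and 0.19. Each of these rests on 6 or 4 genes and was not tested as a list.

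At 3 months, limma called 0 of the 10 genes between genotypes (adjusted p from 0.175 to 0.977), where it called 0.303% of all tested genes. At an unadjusted p below 0.05 there were 2, Cldn5 and Slc2a1, against 13.4% of all genes. The APP mice lay above the WT mice without overlap for 4 of the 10, all endothelial (Cldn5, Flt1, Kdr and Slc2a1), where 13.8% of all genes did so. The WT group of that age holds 2 mice. Other lists moved with genotype at this age. All 8 of 8 oligodendrocyte genes were above 0 (median 0.47, 5 at an unadjusted p below 0.05, 0 called), as were 9 of 10 immediate-early genes (median 0.42, 0 called). APP replicate 1 stood apart from the other two APP mice, with a choroid plexus sum of 3195 against 890 and 834 and an immediate-early sum of 119 against 376 and 362. Without it the difference was 0.82 for Cldn5 and 0.26 for Slc2a1, neither called. The part of these lists was not tested.

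At 6 months, limma called 0 of 10 (adjusted p from 0.28 to 0.977) against 1.66% of all genes, and 1, Slc2a1, had an unadjusted p below 0.05 against 17%. Slc2a1 was also the only one of the 10 for which the APP mice lay above the WT mice without overlap, a count of 1 of 10 beside 11.1% of all genes. This age depends most on the scaling. With TPM as deposited, the median of all genes was 0.60 higher in APP mice on the log2 scale, 58.0% of all genes were called, and 7 of the 10 members were among them. In that fit Rgs5 moved from -0.11 to 0.56 (adjusted p = 0.0126), Vtn from -0.03 to 0.66 (adjusted p = 0.021), Cldn5 from -0.28 to 0.25 and Vwf from -0.26 to 0.13, which places Cldn5, Vwf and Rgs5 below the shifted median of all genes and Vtn just above it.

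At 12 months, limma called 0 of 10 (adjusted p from 0.161 to 0.998) against 0.443% of all genes, and 3, Cldn5, Rgs5 and Flt1, had an unadjusted p below 0.05 against 7.04%. The log2 difference was above 0 for 9 of the 10, all but Vtn, where 48.9% of all genes were above 0. APP mice lay above WT mice without overlap for 5 of 10 (Cldn5, Flt1, Vwf, Slc2a1 and Rgs5), where 8.67% of all genes did so. The F test of the genotype by age interaction called 0 of 10 against 0.437% of all genes, and 2, Cldn5 and Rgs5, had an unadjusted p below 0.05 against 16.0%.

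**Figure D2:**
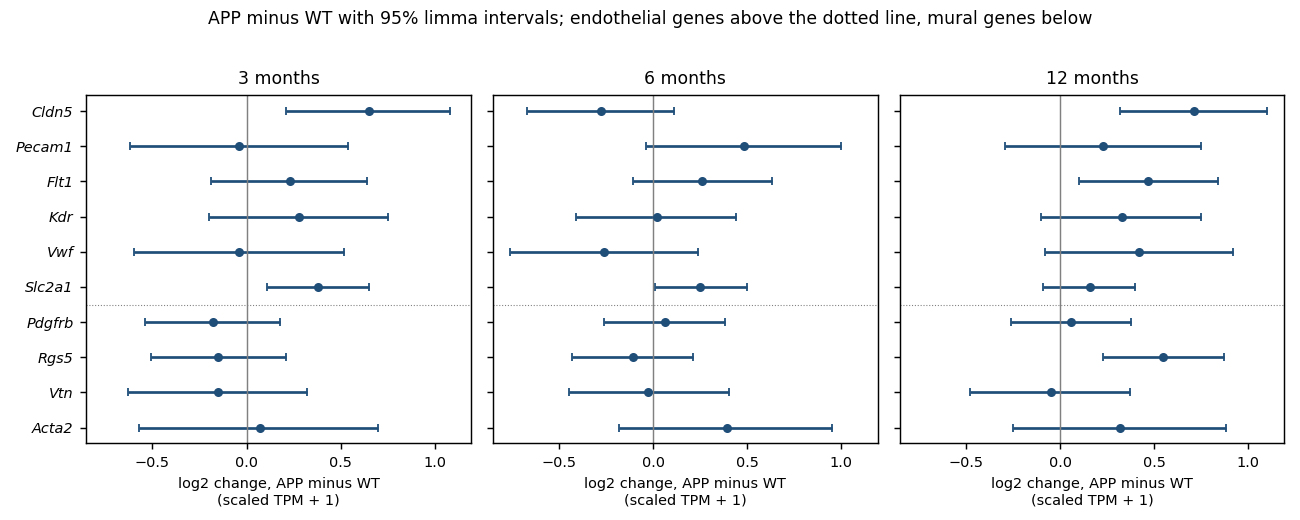
Log2 difference of APP minus WT on the scale of log2(scaled TPM + 1) for the 10 genes at each age (points), with 95% intervals from limma (bars), endothelial genes above the dotted line. The intervals of Cldn5 at 3 and 12 months and of Slc2a1 at 3 and 6 months lie above 0 before adjustment, as do those of Flt1 and Rgs5 at 12 months.

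Cldn5, the claudin of endothelial tight junctions (ENSMUSG00000041378, chr16:18776847-18778262, plus strand, a gene of 1 exon), gave the largest genotype differences of the 10. At 3 months it stood at 2.27 and 2.41 in the WT mice and at 3.16, 4.61 and 5.16 in the APP mice. At 6 months the WT mice had 3.33, 3.48 and 2.56 and the APP mice 3.02, 1.78 and 2.44. At 12 months the WT mice had 2.78, 2.98 and 2.04 and the APP mice 5.33, 4.43 and 4.82. APP mice were thus all above WT mice at 3 and 12 months and mixed with them at 6 months, where the 2 lowest values were from APP mice. The APP mean was 1.84 times the WT mean at 3 months (log2 difference 0.65, SE 0.204, adjusted p = 0.175) and 1.87 times at 12 months (0.71, SE 0.183, adjusted p = 0.161), and neither passed. Between these the 6-month log2 difference was -0.28 (SE 0.183, adjusted p = 0.475). The limma F test of the interaction gave Cldn5 an adjusted p of 0.111. With array weights, which let limma count noisy libraries less, the 12-month difference passed at an adjusted p of 0.0429, while over the alternatives tried, other than leaving out a library, its adjusted p ran from 0.0429 to 0.252.

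Slc2a1, the glucose transporter of the barrier (ENSMUSG00000028645, chr4:119108711-119137983, plus strand), lay above every WT mouse of the same age in every APP mouse. At 3 months the values were 12.9 and 13.9 in WT mice and 21.2, 16.0 and 16.6 in APP mice. At 6 months they were 12.0, 10.8 and 11.4 in WT mice and 15.8, 12.8 and 12.8 in APP mice. At 12 months they were 11.1, 12.4 and 12.4 in WT mice and 13.2, 13.1 and 14.1 in APP mice. The margin was narrow at 6 and 12 months, and no age passed the test. The log2 differences were 0.38 (SE 0.128, adjusted p = 0.207), 0.25 (SE 0.115, adjusted p = 0.28) and 0.16 (SE 0.115, adjusted p = 0.9) at 3, 6 and 12 months, and the interaction had an adjusted p of 0.735. Without APP replicate 1 at 3 months, the highest library, the 3-month difference was 0.26. In the annotation Gm12868, on the opposite strand, shares 105 exon bases with Slc2a1, and the library kit does not mark strand, but the mean TPM of Gm12868 was 0.0539. Astrocytes also hold Slc2a1, so its level is not endothelial alone.

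Flt1, the VEGF receptor whose promoter is shown above (ENSMUSG00000029648, chr5:147561604-147726011, minus strand), had its highest group mean in APP mice at 12 months, with 2.94, 3.46 and 3.64, against 2.23, 2.44 and 1.79 in WT mice. Those groups were apart, with an APP mean 1.56 times the WT mean (log2 difference 0.47, SE 0.173, adjusted p = 0.497). At 3 months the APP mice had 2.73, 3.45 and 2.87 and the WT mice 2.20 and 2.65, which did not overlap either (0.23, SE 0.194, adjusted p = 0.683). At 6 months they did overlap, with 1.58, 2.99 and 2.66 in APP mice and 1.52, 1.89 and 2.02 in WT mice. Kdr, the signalling VEGF receptor (ENSMUSG00000062960, chr5:75932827-75978458, minus strand), had the lowest mean TPM of the 10, with scaled TPM between 0.717 and 1.81. Its group means ran from 0.958 in WT mice at 3 months to 1.49 in APP mice at 12 months, and every group overlapped the next in that order. The log2 differences of Kdr between genotypes were 0.28, 0.02 and 0.33 with adjusted p of 0.665, 0.977 and 0.845.

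Pecam1, the adhesion molecule CD31 found at endothelial contacts and on some blood cells (ENSMUSG00000020717, chr11:106654217-106750628, minus strand), lay between 0.817 and 3.73. The lowest and the highest value were both from 6-month mice, a WT and an APP mouse. Its log2 differences were -0.04, 0.48 and 0.23 at 3, 6 and 12 months with adjusted p of 0.974, 0.338 and 0.961. At 6 months leaving out WT replicate 3, the lowest library, brought the difference to 0.23.

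Vwf, the clotting glycoprotein that endothelial cells store and release (ENSMUSG00000001930, chr6:125546774-125686679, plus strand), was the one gene called in any of these comparisons. APP mice had 0.532, 1.12 and 1.04 at 3 months, 0.949, 0.725 and 1.25 at 6 months, and 2.70, 2.44 and 2.74 at 12 months. All 12-month values of scaled TPM were above all earlier ones. The read depth along Vwf, not divided by library depth, was 0.361, 0.663 and 0.682 at 3 months and 0.305, 1.28 and 0.703 at 12 months, which overlapped. The relative depth of these libraries was 2.361, 1.91 and 3.043 at 3 months and 1.814, 2.02 and 1.874 at 12 months. Replicate 2 at 3 months and replicate 1 at 12 months had like relative depth, 1.91 and 1.814. Their read depth along Vwf was 0.663 and 0.305, while their scaled TPM was 1.12 and 2.70. The rise described here is one of scaled TPM, and read depth did not show it in every mouse. Why the 2 measures differ was not tested. From 3 to 12 months Vwf rose in APP mice by 0.95 on the log2 scale (SE 0.235, adjusted p = 0.041), from a mean of 0.899 to 2.63, in a comparison where 1 of 10 members and 3.28% of all genes were called. At an unadjusted p below 0.05 there were 2 of 10, with Slc2a1, against 16.4%. The call was lost in 14 of the 17 fits that left out 1 library, where the adjusted p ran from 0.0176 to 0.137, and over the other alternatives the adjusted p ran from 0.0261 to 0.0813 with a call in 4 of 9. From 6 to 12 months the log2 difference was 0.88 (SE 0.235, adjusted p = 0.131). WT mice had 1.14 and 0.745 at 3 months, 2.27, 0.601 and 1.47 at 6 months, and 2.12, 1.40 and 1.64 at 12 months, so at 12 months the APP mice lay above the WT mice (0.42, SE 0.235, adjusted p = 0.814). The interaction had an adjusted p of 0.481, so the rise in APP mice is not shown to differ from WT mice. In the same comparison of APP mice the oligodendrocyte list had a median of -0.82 with 6 of 8 genes called, and the plaque-associated glial list a median of 2.6 with 10 of 10 called. Their part in the Vwf value was not tested.

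Rgs5, a regulator of G-protein signalling that marks pericytes and some smooth muscle cells (ENSMUSG00000026678, chr1:169655501-169695813, plus strand), gave the largest genotype difference of the mural genes. At 12 months the WT mice had 12.6, 10.9 and 9.80 and the APP mice 16.0, 17 and 16.9. The groups were apart, with an APP mean of 16.6 that was 1.5 times the WT mean of 11.1 (log2 difference 0.55, SE 0.15, adjusted p = 0.208). The WT group at 12 months had the lowest mean of the 6, and from 6 months, with 15.7, 14.5 and 16.8, to 12 months the WT log2 difference was -0.47 (SE 0.15, adjusted p = 0.632). At 3 months the values were 17.1 and 21 in WT mice and 15.4, 15.2 and 21.1 in APP mice. At 6 months the APP mice had 11.7, 17.1 and 15. The genotypes overlapped at both of these ages, with log2 differences of -0.15 (adjusted p = 0.771) and -0.11 (adjusted p = 0.77). The interaction of Rgs5 had an adjusted p of 0.163, and it passed, at an adjusted p of 0.0149, with TPM as deposited. In that fit 5910 of the 17840 tested genes passed the interaction, and Rgs5 was the only one of the 10 to do so.

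The other mural genes showed no difference past the test and overlapping groups at each age. Pdgfrb, the PDGF receptor that keeps pericytes on capillaries (ENSMUSG00000024620, chr18:61045150-61085061, plus strand), had group means between 2.95 and 3.83, with log2 differences of -0.18, 0.06 and 0.06 and adjusted p from 0.719 to 0.996. Vtn, vitronectin, an adhesive protein secreted by pericytes (ENSMUSG00000017344, chr11:78499091-78502324, plus strand), had group means between 23.3 and 30.2 and log2 differences of -0.15, -0.03 and -0.05. The 95% interval of Vtn at 12 months ran from -0.48 to 0.37. Acta2, the actin of arteriolar smooth muscle (ENSMUSG00000035783, chr19:34241090-34255336, minus strand), had APP and WT means of 1.5 and 1.39, 2.39 and 1.55, and 2.59 and 1.80 at 3, 6 and 12 months. Single APP mice at 6 and 12 months reached 3.65 and 3.57, beside others at 1.57 and 1.41, and the adjusted p ran from 0.506 to 0.96 over the 3 ages.

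Between ages of APP mice, limma called 0 of 10 from 3 to 6 months against 2.37% of all genes, and 2 had an unadjusted p below 0.05 against 18.6%. These were Cldn5, with a log2 difference of -0.63 (SE 0.183, adjusted p = 0.0797), and Slc2a1, with -0.35 (SE 0.115, adjusted p = 0.119). APP mice lay lower at 6 than at 3 months without overlap for these 2 of 10, where 10.1% of all genes did so. In that comparison 8 of 8 oligodendrocyte genes were called lower (median -1.1), as were 3 of 10 immediate-early genes (median -0.68, with 0 of 10 above 0). Their part in the Cldn5 and Slc2a1 values was not tested. From 6 to 12 months limma called 0 of 10 against 0.538%, and 3 (Cldn5, Vwf and Flt1) had an unadjusted p below 0.05 against 11.4%. The 12-month mice lay above the 6-month mice without overlap for 2 of 10, Cldn5 and Vwf, where 10.7% of all genes did so. Cldn5 was 2.02 times as high at 12 months as at 6 (log2 difference 0.79, SE 0.183, adjusted p = 0.075). It was called there with array weights (adjusted p = 0.024) and without APP replicate 1 at 3 months (adjusted p = 0.0497), while leaving out other libraries gave up to 0.313. From 3 to 12 months the log2 difference of Slc2a1 was -0.38 (SE 0.115, adjusted p = 0.0954), which did not pass. Without APP replicate 1 at 3 months it was -0.26. Between WT mice at 12 and 6 months limma called 0 of 10 and 0% of all genes, with Rgs5 alone of the 10, against 6.82% of all genes, at an unadjusted p below 0.05.

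The summed scaled TPM of the 6 endothelial genes lay between 28.7 and 30.9 in APP mice at 3 months, between 23.2 and 23.8 at 6 months and between 27.0 and 29.4 at 12 months. In WT mice the sums lay between 21.6 and 23.5, 19.0 and 22.2, and 20.5 and 22.3. APP mice were above WT mice at each age, as the plot of summed levels shows, but Slc2a1 is the largest term of each sum. Without Slc2a1 the sums still did not overlap at 3 months (8.70 and 9.59 in WT mice, 9.79 to 13.4 in APP mice) or at 12 months (8.09 to 9.92 against 13.8 to 15.3), and at 6 months they did (7.58 to 10.2 against 8.05 to 10.5). The 4 mural genes summed to between 37.0 and 62.2 over all mice, and the genotypes overlapped at each age. Without Vtn, the mural sum at 12 months was 15.1 to 17.5 in WT mice and 20.5 to 25.4 in APP mice, most of it Rgs5. At 3 months it was 21.9 and 25.9 in WT mice and 19.6 to 25.5 in APP mice, and at 6 months 19.8 to 21.4 and 16.8 to 24.4, which overlapped at both ages.

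**Figure D3:**
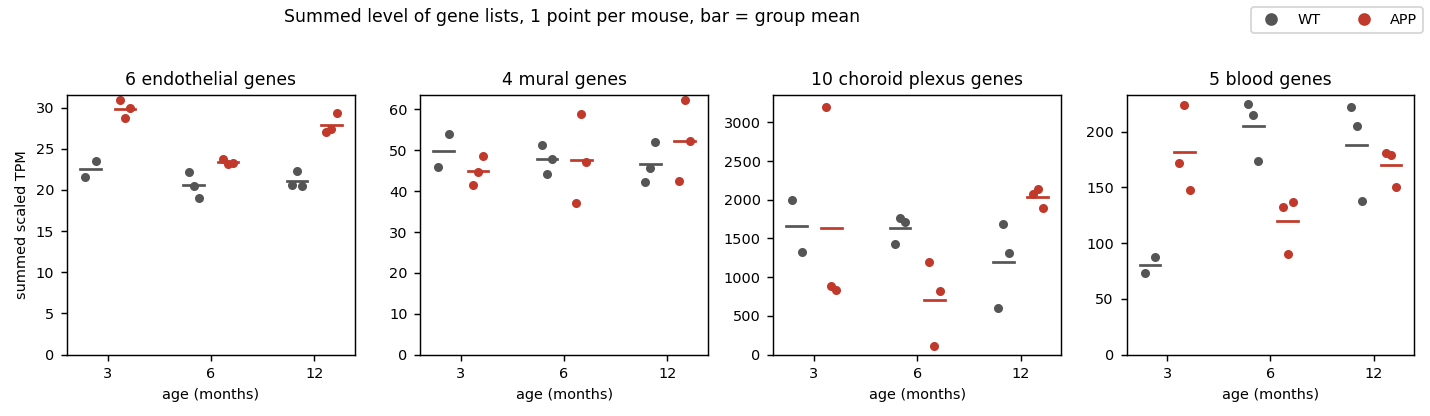
Summed scaled TPM (vertical axes, each from 0) of the 6 endothelial genes, the 4 mural genes, 10 choroid plexus genes and 5 blood genes at 3, 6 and 12 months, with 1 point per mouse (WT grey, APP red) and a bar at each group mean. The endothelial sums of APP mice, from 23.2 to 30.9, lie above those of WT mice at each age, and the choroid plexus sums run from 111 to 3195.

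Tissue from beside the hippocampus and blood left in the vessels varied between the same mice. The choroid plexus, whose capillaries have their own endothelium, lies against the hippocampus. The 10 choroid plexus genes, led by Ttr, the thyroid hormone carrier of that epithelium, had summed levels from 834 to 3195 in APP mice at 3 months, from 111 to 1199 at 6 months and from 1894 to 2133 at 12 months, against 1327 to 1999, 1433 to 1762, and 602 to 1682 in WT mice. All 10 were detected, none was called in any comparison, and their APP minus WT medians of -0.28, -1.0 and 0.92 on the log2 scale differ in sign between ages. From 6 to 12 months in APP mice, where Cldn5 and Vwf had their large positive differences, 10 of 10 choroid plexus genes were above 0 with a median of 1.4. The 5 blood genes, haemoglobins and Alas2, had sums of 73.3 and 87.6 in WT mice at 3 months and 148 to 224 in APP mice, 174 to 225 against 90.2 to 137 at 6 months, and 138 to 222 against 150 to 181 at 12 months. Hbb-bs, a beta globin, was called higher in APP mice at 3 months (1.13, SE 0.216, adjusted p = 0.0451) and lower at 6 months (-0.90, SE 0.193, adjusted p = 0.0343). Neither Hbb-bs call was stable. The call at 3 months was lost in 12 of 17 fits without 1 library and with TPM as deposited (adjusted p = 0.0742). Only the compared groups (0.482), no filter (0.0758) and array weights (0.0733) lost it too. The call at 6 months was lost in 4 of 17 (up to 0.124) and with TPM as deposited, where the difference was -0.19 (adjusted p = 0.41). No filter (0.0781) and only the compared groups (0.101) lost the 6-month call too. The median log2 difference of the blood genes was 1.13 at 3 months and -0.62 at 6 months, the same signs as Cldn5, and -0.12 at 12 months, where Cldn5 had 0.71. The part of choroid plexus and blood in the vascular genes was not tested.

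Further genes of vessels were read from lists of symbols. Of 11 tight and adherens junction genes 10 were tested, and their medians between genotypes were 0.13, 0 and 0.28 at 3, 6 and 12 months with 0 called. Cldn12, a claudin of several cell types, fell by 0.75 on the log2 scale (SE 0.184, adjusted p = 0.0398) from 3 to 12 months in APP mice, from a mean of 17.9 to 10.2, and was the 1 gene of that list called in any comparison. The Cldn12 call was lost in 9 of 17 fits without 1 library (adjusted p up to 0.147), with TPM as deposited (0.167), without a filter (0.0757) and with only the compared groups (0.082). Of 12 barrier transport genes 11 were tested, with medians of 0.06, 0.06 and 0.03. Among them Mfsd2a, a lipid transporter of the barrier, fell by 0.93 (SE 0.215, adjusted p = 0.0295) from 3 to 12 months in APP mice, with means of 8.07 and 3.73. The WT means were 7.87 and 3.72 at those ages. WT mice of 3 and 12 months differ in Xist and Ddx3y, so age and sex cannot be told apart there, and those WT groups were not tested. The Mfsd2a call was lost in 5 of 17 such fits (adjusted p up to 0.128), with TPM as deposited (0.0794), without a filter (0.0555) and with only the compared groups (0.0954). Tfrc, the transferrin receptor, was lower in APP mice at 6 months (41.4 to 41.9 against 56.2 to 65.4, log2 difference -0.55, SE 0.112, adjusted p = 0.0271). At 0.15 with TPM as deposited it was not called and had the other sign, while remaining below the shifted median of all genes. Its call was also lost with scaling to the total without the 20 highest genes (0.071), without a filter (0.0517) and with only the compared groups (0.0949). Of the fits without 1 library, 4 of 17 lost it (adjusted p up to 0.0933).

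Of 17 genes of VEGF, angiopoietin, PDGF and Notch signalling, 12 were tested. Their medians between genotypes were -0.17, 0.09 and 0.15 at 3, 6 and 12 months. At 3 months 2 of 12 were above 0, and 8 of 12 were at 6 and at 12 months. The calls were in the neuropilins, co-receptors of VEGF and semaphorins that neurons also hold. Nrp2 was lower in APP mice at 3 months (9.74 to 12.0 against 17.5 and 18.9, log2 difference -0.70, SE 0.133, adjusted p = 0.0451) and passed the interaction test (adjusted p = 0.0355). In APP mice it rose by 0.70 from 3 to 6 months (SE 0.119, adjusted p = 0.0126) and was 0.58 above the 3-month level at 12 months (SE 0.119, adjusted p = 0.0177). The 6-month rise was not called with only the compared groups in the fit (0.159). The 12-month call was lost there (0.0816), with TPM as deposited (0.109) and in 3 of 17 fits without 1 library (up to 0.0836). Nrp1 rose by 0.87 from 3 to 6 months in APP mice (SE 0.202, adjusted p = 0.0402), with 0.56 and an adjusted p of 0.0675 when APP replicate 1 at 3 months was left out. The Nrp1 call was lost in 9 of 17 fits without 1 library, with an adjusted p of up to 0.171 without APP replicate 2 at 6 months. It was also lost with only the compared groups (0.244), without a filter (0.0891) and with array weights (0.0704). The Nrp2 call at 3 months was lost in 14 of 17, with an adjusted p of up to 0.203, and with the replicate block (0.0531). The interaction call of Nrp2 was lost in 9 of 17 and without a filter (0.0662). None of the ligands Vegfa, Vegfb, Pgf, Angpt1, Angpt2 and Pdgfb was called.

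Lists of further markers of these cell types held no call in any comparison. They covered 9 tested of 17 other endothelial genes, 2 of 8 activation genes of inflamed endothelium, 9 of 12 other pericyte genes, 5 of 10 other smooth muscle genes, 9 of 9 fibroblast genes and 2 of 7 perivascular macrophage genes. At 12 months, where the endothelial members had a median of 0.38, the other endothelial genes had 0.15 with 7 of 9 above 0 and 1 of 9 at an unadjusted p below 0.05. At 3 and 6 months their medians were -0.07 and -0.18, with 3 of 9 above 0 at each. The other pericyte genes had medians of 0.02, 0.12 and 0.18. Cd34, the most abundant of the other endothelial genes, had group means from 9.66 to 14.4, and P2ry14, that of the pericyte list, from 3.88 to 6.58. Means ran from 9.32 to 21.1 for Ackr1 (activation), from 2.86 to 3.92 for Myl9 (smooth muscle), from 22.6 to 36.5 for Igf2 (fibroblast) and from 2.74 to 4.83 for Stab1 (macrophage). The sums of the other endothelial genes ran from 49.3 to 58.2 in WT mice and from 61.9 to 72.4 in APP mice at 12 months. They overlapped at 3 months, with 54.1 and 76.0 in WT mice and 53.9 to 71.6 in APP mice, and at 6 months, with 51.5 to 54.0 and 44.8 to 55.2. As a gauge of the same test on a glial gene, Gfap of reactive astrocytes was 2.04 higher in APP mice on the log2 scale at 12 months (SE 0.304, adjusted p = 0.00687), with means of 534 and 129 in APP and WT mice.

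Within groups the 10 genes did not vary as 1 unit. After each group's mean was subtracted, the 45 pairs of members had Pearson r from -0.57 (Flt1 with Slc2a1) to 0.70 (Pecam1 with Acta2) over the 17 mice, with a median of 0.15, and 27 of 45 above 0. Against the mean of the 6 endothelial genes, the most alike of the 11040 other genes whose mean TPM reached 5 were Ralgps2 (r = 0.89), Dtnbp1 and Cfap36 (0.85), and Anp32a and U2surp (0.84). Against the mean of the 4 mural genes they were Prdx6 (0.86), Zfp326 and Ppwd1 (0.85), and Ptgds (0.84). These r values share libraries and their depth, were picked as the highest of many, and are given as a description.

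HT-22 cells, a mouse hippocampal neuronal line, gave a measure of these genes outside vessels in 14 long-RNA libraries. The cells had received an anti-Hsf1 LNA (a locked nucleic acid oligonucleotide, 150 nM) or a scramble LNA (50 uM as labelled) over 24 h. Amyloid beta 1-42 or its reverse peptide followed at 30 uM, with 4 libraries for each peptide under scramble and 3 under anti-Hsf1. Values are TPM as deposited in both sample types and were not tested against each other. Kdr and Vwf were listed at 0 in 14 of 14 libraries, Rgs5 in 13, Vtn in 12, Cldn5 in 8 and Flt1 in 7. The highest values were 0.0856 for Rgs5, 0.402 for Vtn, 0.512 for Cldn5 and 0.108 for Flt1, each below every mouse library. Pecam1 reached 1.87 in 1 library around a median of 0.14. Slc2a1 and Pdgfrb went the other way: Slc2a1 ran from 30.2 to 105 and Pdgfrb from 23.6 to 71.9, above their hippocampal means of 14.1 and 3.54. Acta2 lay between 1.12 and 4.42 in 11 libraries and between 46.9 and 73.5 in 3, amyloid beta with scramble replicates 3 and 4 and reverse peptide with scramble replicate 4. Slc2a1, Pdgfrb and Acta2 were thus present in every library of a line without vessels, and Cldn5, Flt1, Kdr, Vwf, Rgs5 and Vtn were at or near 0.

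**Figure D4:**
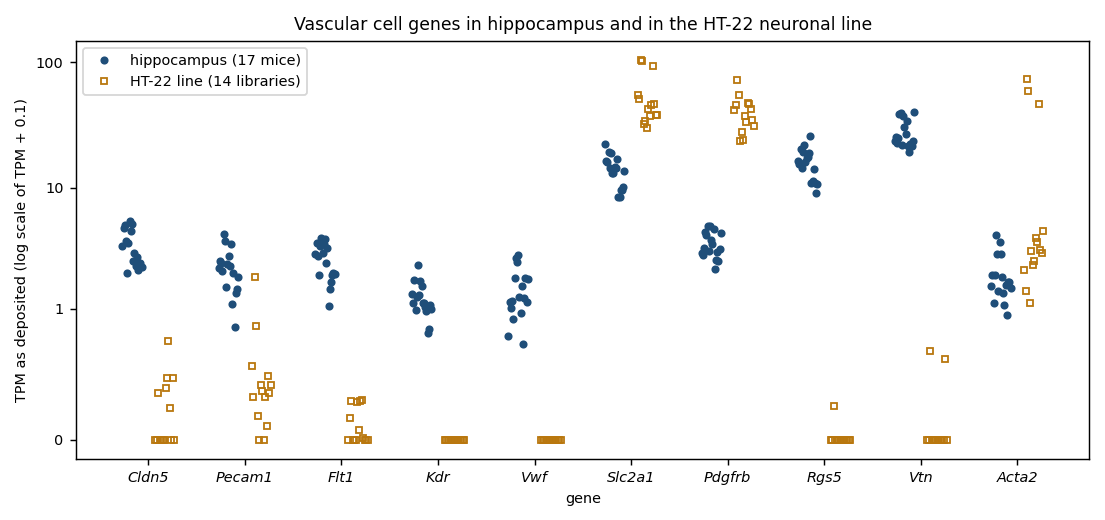
TPM as deposited (vertical axis, log scale of TPM + 0.1) of the 10 genes (horizontal axis) in 17 hippocampus libraries (filled circles) and 14 HT-22 libraries (open squares), with 1 point per library. Kdr and Vwf lie at 0 in all HT-22 libraries, while Slc2a1 and Pdgfrb lie at 23.6 or above in all of them.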

How the data were processed

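Gene abundance tables of 17 mouse and 14 HT-22 long-RNA libraries were used, and counts over the B2 element were not used here. Each library has its own table. The authors deposited TPM and FPKM, both per gene length and library, and a coverage signal, the average read depth along a gene, per the file headers. The submitters' processing notes name HISAT2 2.1.0, StringTie 1.3.4d, cutadapt 1.18 and GRCm38, without saying which step each served. These units hold no read counts, so depth per gene is known only as coverage and no count test was run.

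The 10 genes and all lists were chosen with earlier results of these data known. TPM of rows with the same gene identifier was summed, and each mouse library was scaled by its median ratio to the geometric mean of the mouse libraries over 17141 genes. For each contrast, limma 3.58.1 (in R 4.3.3) was run on log2(scaled TPM + 1) with its trend and robust options, over the 17840 genes whose mean TPM reached 1. The 6 mouse groups entered 1 fit. The pseudocount of 1 understates the change of low genes. P-values were adjusted by Benjamini-Hochberg over all tested genes, and a gene was called below 0.05. Groups came from the labels and per the series design each library is 1 mouse.

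All 10 genes were named in every comparison. From each other list at most 3 called genes per comparison were named, or, where none was called, the gene with the highest mean TPM. Alternatives covered scaling, pseudocount, filter, groups in the fit, array weights, a replicate block and leaving out each library. Of the gene coordinates, given on GRCm38 as in the files, 9 of 10 are the same in GENCODE M21, and those of Acta2 differ.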

Additional observations from a re-analysis of the deposited data

Results flagged for a closer look

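In HT-22 groups of 4 libraries, 5 of 14 group and gene combinations tested had 1 library farther from the rest than the 95% critical value of Dixon's gap ratio. Chance gives about 5%, or 1 in 20, for groups without tied values. Cldn5, Rgs5 and Vtn were at 0.136, 0.0856 and 0.402 TPM in amyloid beta with scramble replicate 3 and at 0 in the other 3 libraries of that group. With 3 libraries at 0 any value above 0 is singled out, so the chance rate does not apply to these 3 genes. In reverse peptide with scramble replicate 4, Slc2a1 was at 92.9 TPM, beside 37.7 to 45.9 in the others, and Acta2 was at 46.9 TPM, beside 2.51 to 3.93. The relative depth of these libraries was 1.635 and 2.599, the highest in each group. The part of depth was not tested. No mouse group holds 4 libraries, so no mouse value was examined this way.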

How the results depend on the processing

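With TPM as deposited, counts of called genes moved to 10339 for APP against WT at 6 months (7 of 10 members), 5910 for the interaction (1 member), 1270 for APP at 6 against 3 months, 286 for APP at 12 against 3 months (0 members) and 26 for APP at 12 against 6 months. In that fit the 6-month differences of Rgs5 (0.56), Vtn (0.66), Cldn5 (0.25), Vwf (0.13) and Tfrc (0.15) had the opposite sign. It shifts the median of all genes by 0.60 at 6 months. Scaling to the total without the 20 highest genes called 775 (6 months), 169 (interaction) and 45 (APP at 12 against 6). Quantile normalization called 134 for the interaction, 62 for APP at 12 against 6, and 0 members for APP at 12 against 3. Pseudocount 0.1 called 42 for APP at 12 against 6 and 0 members for APP at 12 against 3, and pseudocount 5 called 133 for the interaction. Without a filter, counts were 34 (3 months), 115 (6 months), 47 (interaction), 181 (APP at 6 against 3) and 2 (WT at 12 against 6), with 0 members for APP at 12 against 3. At a mean TPM of at least 5, where only Slc2a1, Rgs5 and Vtn were tested, they were 50 (12 months), 165 (interaction) and 387 with 0 members (APP at 12 against 3). With only the compared groups in the fit they were 4 (3 months), 37 (6 months), 2 (APP at 6 against 3), 132 with 0 members (APP at 12 against 3), 1 (APP at 12 against 6) and 1 (WT at 12 against 6). The interaction uses all groups and has no such fit. Array weights gave 15 (3 months), 151 with 1 member (12 months), 186 (APP at 6 against 3) and 250 with 1 member (APP at 12 against 6). The cause of these changes was not tested.

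The replicate block moved 1 count past 1.5 times, the interaction at 130 against 78, and changed no call of a member. Of the other genes named, it lost the Nrp2 call at 3 months (adjusted p = 0.0531). Samples with the same number correlated between -0.16 and 0.15, above 0.1 in 2 of 8 pairs, and 8 of 16 correlated best with their own number. The share expected by chance was not computed, so these values do not decide whether the numbers mark pairs. The numbers were not taken as pairs because the labels do not say that they mark a shared litter, batch or day. Leaving out 1 library, with a lone WT mouse at 3 months taken to vary like the other groups, called 7 to 380 genes (3 months), 66 to 511 (6 months), 25 to 105 (12 months), 22 to 206 (interaction), 40 to 585 (APP at 6 against 3), 159 to 758 with 0 to 1 member (APP at 12 against 3), 1 to 129 with 0 to 1 member (APP at 12 against 6) and 0 to 4 (WT at 12 against 6), where all libraries gave 54, 297, 79, 78, 423, 585, 96 and 0. In the last comparison 1216 genes had an unadjusted p below 0.05. The lowest counts came without WT replicate 2 at 3 months (7 and 22), APP replicates 2 and 3 at 6 months (40 and 66) and APP replicates 1 and 3 at 12 months (25, 1 and 159), and the 380 and 206 without APP replicate 3 and the 511 without APP replicate 1, both at 3 months. Shallow coverage limits Vwf, Flt1, Pecam1 and Kdr most.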

Other observations

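In HT-22 libraries with amyloid beta 1-42, Slc2a1 was at 55.4, 50.7, 105 and 102 TPM as deposited with scramble LNA and at 32.2, 33.8 and 30.2 with anti-Hsf1 LNA. Pdgfrb was at 41.6, 45.8, 71.9 and 55.2 with scramble and at 23.6, 28.1 and 24.0 with anti-Hsf1. With the reverse peptide, Slc2a1 was at 42.6, 37.7, 45.9 and 92.9 with scramble and at 46.4, 37.8 and 37.9 with anti-Hsf1, and Pdgfrb was at 37.3, 33.4, 47.8 and 46.3 with scramble and at 42.8, 34.6 and 31.1 with anti-Hsf1. With amyloid beta and scramble, replicates 3 and 4 stood apart from the others for Slc2a1 (105 and 102 against 55.4 and 50.7). None of these groups was tested against another, and the values were not scaled between libraries.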
